A study of Mus musculus with 2 samples.

Results

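The 7 genes described here, Gabra2, Gabra3, Gabra4, Gabra5, Gabrb1, Gabrb2 and Gabrd, encode subunits of the GABA-A receptor, the chloride channel through which the transmitter GABA inhibits most neurons of the mature brain. They were taken by symbol out of 55536 annotated genes, and all 7 were found in both libraries. The tissue was the cerebral cortex of the left side, taken at 10 days of age from 2 females of B6CASTF1/J, the F1 hybrid of the strains C57BL/6J and CAST/EiJ. Each animal gave 1 total RNA library with an input of 300 ng, to which ERCC spike-ins, a set of synthetic control RNAs, were added. The labels name no treatment and no engineered allele. The animals are called replicate 1 and replicate 2 and form 1 group with no other group beside it. All means are therefore given with the SD of 2 animals, and no p-value is given, because an exact two-sided test on 2 animals cannot reach below 0.5. The labels do not say whether the animals were littermates, so the SD describes these animals only.

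A GABA-A receptor is a pentameric ring that usually combines alpha and beta subunits with a gamma or a delta subunit. The alpha subunit decides which benzodiazepines the receptor binds, GABA itself binds between alpha and beta, and receptors with delta lie outside synapses, where they carry the tonic current. In the rodent cortex, alpha2, alpha3 and alpha5 are known as prominent subunits around birth, and alpha4 and delta as subunits that gain later. The strain C57BL/6J is known to carry an intronic deletion beside a splice site of Gabra2 that lowers its mRNA in the brain. The hybrids hold 1 set of chromosomes from that strain, but the deposited tables do not separate the parental alleles, and all reads were matched to mm10, the C57BL/6J genome.

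The alpha genes are told apart at a codon that governs benzodiazepine binding, and the stretches around it are shown because they place the 4 alpha members in their pharmacological classes. Each stretch is the coding strand of mm10 with 8 codons on either side, taken from the GENCODE M21 transcripts, and the capitals mark the codon. It is CAC, a histidine codon, in Gabra2 (codon 129, chr5:71014481-71014531, minus strand), Gabra3 (codon 154, chrX:72501144-72501194, minus strand) and Gabra5 (codon 136, chr7:57488867-57488917, minus strand), and AGG, an arginine codon, in Gabra4 (codon 135, chr5:71641128-71641178, minus strand). Receptors with the histidine bind classical benzodiazepines such as diazepam, and receptors with the arginine do not.
Gabra2: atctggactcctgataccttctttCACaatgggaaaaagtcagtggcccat
Gabra3: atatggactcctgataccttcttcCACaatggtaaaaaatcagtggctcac
Gabra4: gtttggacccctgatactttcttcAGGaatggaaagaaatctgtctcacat
Gabra5: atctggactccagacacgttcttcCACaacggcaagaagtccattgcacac

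The beta genes are told apart in the same way at a codon of the second membrane helix, which lines the channel. It is AGC, a serine codon, in Gabrb1 (codon 290, chr5:72121957-72122007, plus strand) and AAC, an asparagine codon, in Gabrb2 (codon 289, chr11:42597549-42597599, plus strand). The anaesthetic etomidate acts strongly on receptors with the asparagine and weakly on those with the serine.
Gabrb1: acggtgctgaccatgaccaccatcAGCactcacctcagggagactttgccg
Gabrb2: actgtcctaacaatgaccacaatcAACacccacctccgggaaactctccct
Over the whole coding sequence the members remain far apart. The 4 alpha genes were between 67.7% (Gabra4 and Gabra5) and 72.5% (Gabra3 and Gabra5) identical in aligned bases and the 2 beta genes 72.2%, whereas identity across the alpha, beta and delta classes lay between 54.3% (Gabra2 and Gabrd) and 60.1% (Gabra4 and Gabrb1).

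The members lie in the clusters known for this family. On chromosome 5, Gabra2 (mm10 chr5:70957597-71095849, minus strand), Gabra4 (chr5:71569749-71658308, minus strand) and Gabrb1 (chr5:71658113-72149037, plus strand) sit beside Gabrg1. Gabra4 and Gabrb1 point away from each other and overlap by 196 bases at their 5′ ends (chr5:71658113-71658308). Gabra5 (chr7:57407672-57510059, minus strand) lies on chromosome 7 beside Gabrg3, and Gabrb2 (chr11:42419757-42629028, plus strand) on chromosome 11 beside Gabra6. Gabra3 (chrX:72432681-72656848, minus strand) lies on the X chromosome between Gabre and Gabrq. Gabrd (chr4:155384980-155398112, minus strand) stands alone on chromosome 4 and, with a span of 13.1 kb, is the most compact member; Gabrb1 spans 491 kb. Genes on the opposite strand overlap Gabra3 (2 of them), Gabra5 (2), Gabrb1 (3) and Gabra4 (1, Gabrb1 itself). The labels name a spike-in profile for stranded libraries, but no label or header says whether the counting used strand, so reads of such partners may not be told apart.

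The libraries held 29990965 and 31156256 expected reads in replicates 1 and 2, with 0.413% and 0.401% of them on the spike-ins. A count of 3 reads in a transcript of 1 kb corresponds to 0.160 and 0.147 TPM in replicates 1 and 2. All 8 markers of cortical glutamatergic neurons were at 1 TPM or more in both animals, as were 59.1% of the 22028 protein-coding genes. This limit does not single out cortex, since 4 of the 5 striatal and all 4 endothelial genes passed it too. The cortical markers had sums of 2217 and 2395 TPM, the highest of the 11 marker lists, which differ in size. Of the other marker lists, the 5 astrocyte genes summed to 1011 and 1019 TPM, the 6 interneuron genes to 535 and 532 TPM, the 5 striatal genes to 83.8 and 61.5 TPM and the 6 genes of myelinating oligodendrocytes to 138 and 268 TPM. The lists of other cells and regions summed to 115 and 116 TPM for the 4 genes of oligodendrocyte precursors, 65.9 and 63.1 TPM for 3 microglial genes, 87.4 and 83.2 TPM for 4 endothelial genes, 48.7 and 44.2 TPM for 5 thalamic genes, 43.4 and 36.0 TPM for 4 hippocampal genes and 6.38 and 12.2 TPM for 5 genes of the choroid plexus. Single genes carried some of these sums. Of the 4 hippocampal genes only 1, Wfs1 (41.95 and 33.59 TPM), was at 1 TPM or more in both animals. Of the 5 thalamic genes 3 were, and Slc17a6 (23.5 and 18.4 TPM) and Rora (20.3 and 20.1 TPM) made up most of that sum. Cck had 208 and 233 TPM of the interneuron sum. In bulk tissue, fewer cells of a type and less RNA per cell cannot be told apart, and a level below is an average over all these cells.

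All 7 subunit genes were expressed at 1 TPM or more in both animals, as were 59.1% of the 22028 protein-coding genes. Levels are deposited values in TPM, shares of all transcripts that correct for length and so allow genes to be compared. Gabrb2 was highest, with 80.6 and 78.0 TPM (79.3 ± 1.86, SD, n = 2), above 93.8% of all protein-coding genes. Gabrd was lowest, with 17.2 and 17.6 TPM (17.4 ± 0.304), above 71.4% of them. The median of the 7 members was 42.5 TPM in replicate 1 and 37.7 TPM in replicate 2, or 40.1 ± 3.40 TPM.

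**Figure D1:**
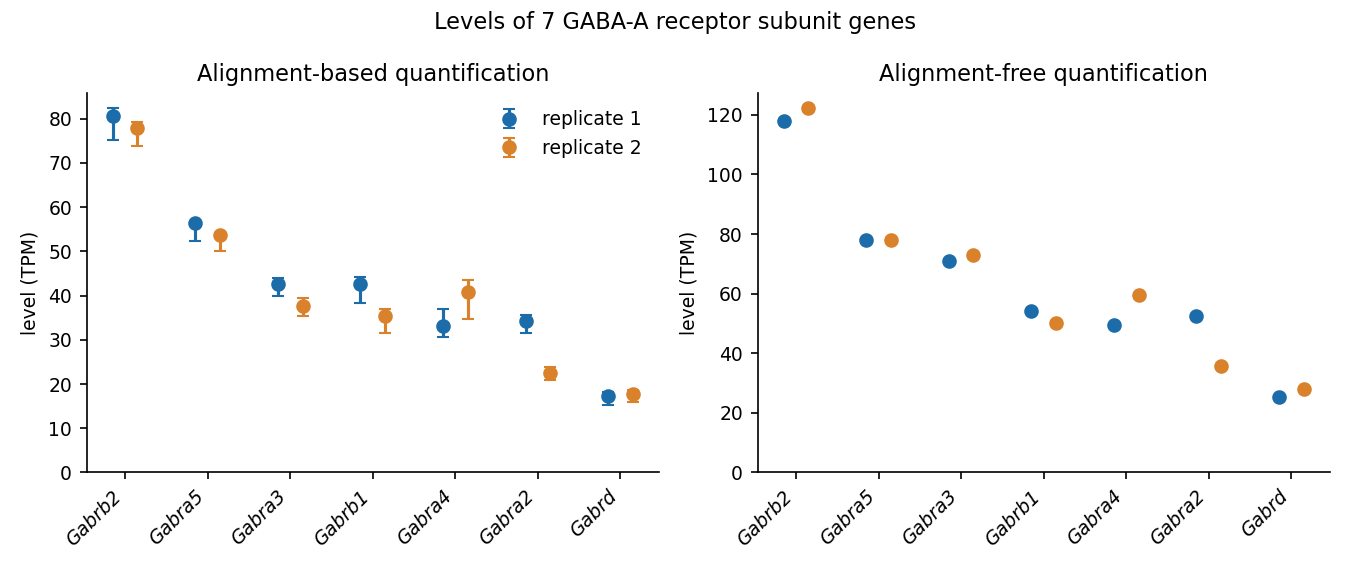
TPM of the 7 subunit genes in each animal, from the alignment-based gene tables (left, points are estimates and bars the deposited credible intervals) and summed from the alignment-free transcript tables (right, no intervals deposited), ordered by the alignment-based mean. Gabrb2 stands at the top and Gabrd at the bottom in both panels, and the points of the 2 animals lie far apart for Gabra2.

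Among the alpha genes, Gabra5, whose subunit is known for extrasynaptic receptors of hippocampal and deep cortical pyramidal cells, was highest with 56.3 and 53.7 TPM (55.0 ± 1.87). Gabra3, whose subunit is prominent in the immature cortex, had 42.5 and 37.7 TPM (40.1 ± 3.40). The animals lay close together for both genes, with coefficients of variation of 3.41% for Gabra5 and 8.47% for Gabra3. Gabra4, the partner of delta in extrasynaptic receptors, had 33.1 and 40.8 TPM (37.0 ± 5.45). Gabra2, whose subunit is enriched at the axon initial segment, had 34.3 and 22.4 TPM (28.4 ± 8.41), the widest spread of any member, with a coefficient of variation of 29.7%. The order of Gabra2 and Gabra4 was therefore not the same in the 2 animals, although their credible intervals overlapped in replicate 1.

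As shares of the summed TPM of these 4 alpha genes, Gabra5 made up 33.9% and 34.7%, Gabra3 25.6% and 24.4%, Gabra4 19.9% and 26.4%, and Gabra2 20.6% and 14.5% in replicates 1 and 2. The genes with the CAC codon thus held all but the Gabra4 share. These are shares of whole genes, and not all of their RNA encodes the histidine. The coding transcript of Gabra2 held 39.5% and 48.2% of that gene's TPM in replicates 1 and 2. The share is one of RNA, not of receptors, and covers the 4 genes named, not every alpha subunit.

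Of the beta genes, Gabrb2, whose subunit belongs to the common synaptic receptor of the adult brain, held 65.4% and 68.8% of their sum, and Gabrb1 34.6% and 31.2%. Gabrb1 had 42.7 and 35.3 TPM (39.0 ± 5.24), so that Gabrb2 exceeded it 2.04-fold (log2 ratio 0.91 in replicate 1 and 1.14 in replicate 2). In reads, which are not corrected for length, Gabrb1 had 5871 and 5121 and Gabrb2 5461 and 5998; the main annotated transcript of Gabrb1 is 13737 bases long and that of Gabrb2 3989. Gabrd, the only member of the delta class, was below all others. Gabra4, its usual partner, exceeded it 2.11-fold (log2 ratio 0.94 in replicate 1 and 1.21 in replicate 2).

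A pair of members was called set apart when its log2 ratio had the same sign in both animals and the deposited credible intervals did not overlap in either. By this criterion 17 of the 21 pairs were set apart. Gabrb2 exceeded every other member, by between 1.44-fold (Gabra5) and 4.53-fold (Gabrd), and Gabra5 exceeded every member but Gabrb2. The 4 pairs that were not set apart all changed sign between the animals, but none had intervals apart in both. They were Gabra3 and Gabrb1 (log2 ratio -0.01 and 0.10), Gabra3 and Gabra4 (0.36 and -0.11), Gabrb1 and Gabra4 (0.37 and -0.21), and Gabra4 and Gabra2 (-0.05 and 0.86). In the alignment-based gene levels, Gabra3, Gabrb1 and Gabra4 thus had no order among themselves that held in both animals. Of the 6 neighbouring pairs in the order of means, 3 were set apart: Gabrb2 and Gabra5, Gabra5 and Gabra3, and Gabra2 and Gabrd.

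**Figure D2:**
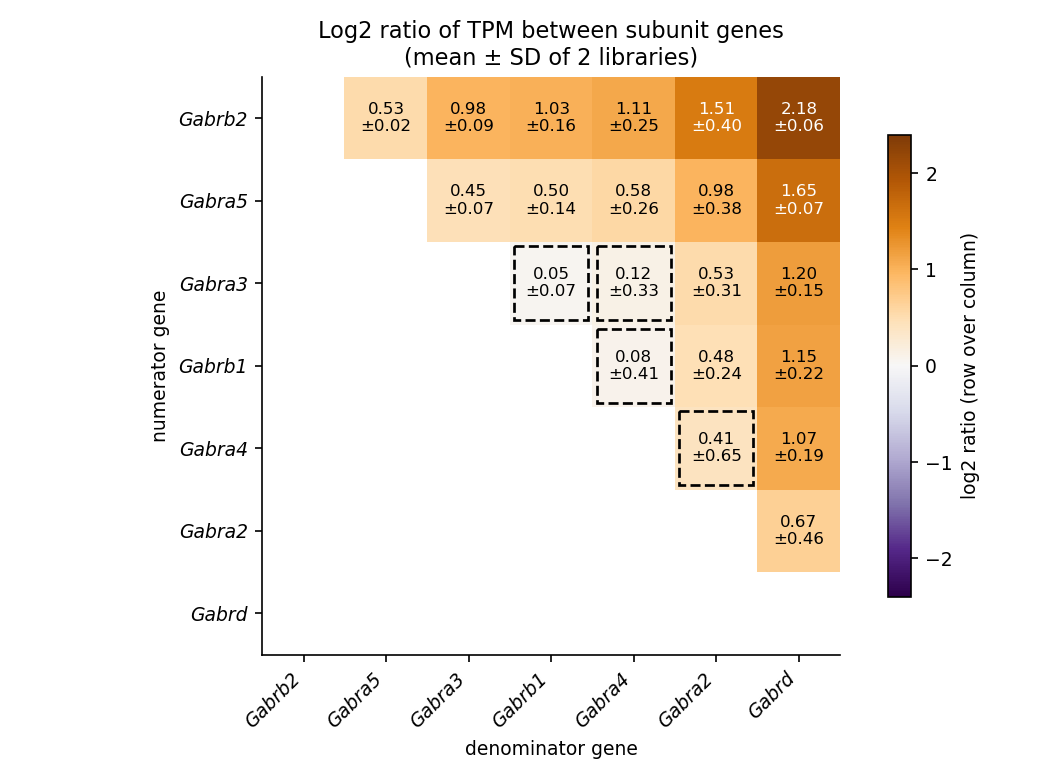
Mean log2 ratio of TPM (row gene over column gene) with the SD of 2 animals for all 21 pairs, coloured by the mean. Dashed frames mark the 4 pairs that were not set apart, all of which involve Gabra3, Gabrb1, Gabra4 or Gabra2.

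The alignment-free tables gave higher values for all 7 members. They assign 82.5% and 83.2% of TPM to protein-coding genes, where the alignment-based tables assign 53.2% and 50.5%; the part of this in the members' values was not tested. Gabrb2 stood at 118 and 122 TPM there, Gabra5 at 77.9 and 78.0, Gabra3 at 71.1 and 73.1, Gabra4 at 49.5 and 59.5, Gabrb1 at 54.0 and 50.3, Gabra2 at 52.6 and 35.8, and Gabrd at 25.5 and 27.9 TPM. The 3 highest members and the lowest pair kept their ranks, while Gabra4 and Gabrb1 changed places. Gabra3 exceeded Gabrb1 (log2 ratio 0.40 and 0.54) and Gabra4 (0.52 and 0.30) in both animals there, unlike in the alignment-based levels. Gabra5 and Gabra3 were closer there, with a 1.08-fold difference against 1.37-fold, and Gabra2 again differed most between the animals.

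The difference between the animals was then taken from reads scaled by TMM, a normalization over the whole table, as replicate 1 over replicate 2. None of the 7 members was 2-fold or more apart, and 45 of the 12689 genes with a mean of 100 reads or more were (0.355%). Gabra2 had 2662 and 2031 expected reads, a log2 ratio of 0.40 or 1.32-fold, and 95.8% of those 12689 genes lay closer to 0. Gabrb1 followed with 5871 and 5121 reads and a log2 ratio of 0.21. The other 5 members were within 0.16 of 0: Gabra3 at 0.08, Gabra5 at -0.05, Gabra4 at -0.11, Gabrb2 at -0.12 and Gabrd at -0.15. On the TPM scale, Gabra5 and Gabrb2 had the opposite sign (0.07 and 0.05), so no direction is given for them. For Gabra2 the TPM ratio was wider, a log2 of 0.61, and the deposited effective length of the gene was 4144 bases in replicate 1 and 4426 in replicate 2.

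Other genes also differed between the animals, in either direction. Gabrg1, the neighbour of Gabra2 on chromosome 5, had 735 and 554 reads and a log2 ratio of 0.42, while Gabra4 in the same cluster stood at -0.11. Of the 5 striatal markers, the 4 with 100 reads or more were all higher in replicate 1, at log2 ratios of 0.10 to 0.35, among them Ppp1r1b and Pde10a, which mark striatal projection neurons. The 4 markers of myelinating oligodendrocytes at that depth were all lower in replicate 1, by a log2 ratio of -0.78 to -1.49, and the 8 cortical glutamatergic markers were all lower too, at -0.06 to -0.53. Of all 12689 genes with a mean of 100 reads or more, 5567 were higher and 7122 lower in replicate 1, with a median log2 ratio of -0.02. No defining marker of these 3 lists was at 0 in either animal. Their part in the Gabra2 difference was not tested.

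**Figure D3:**
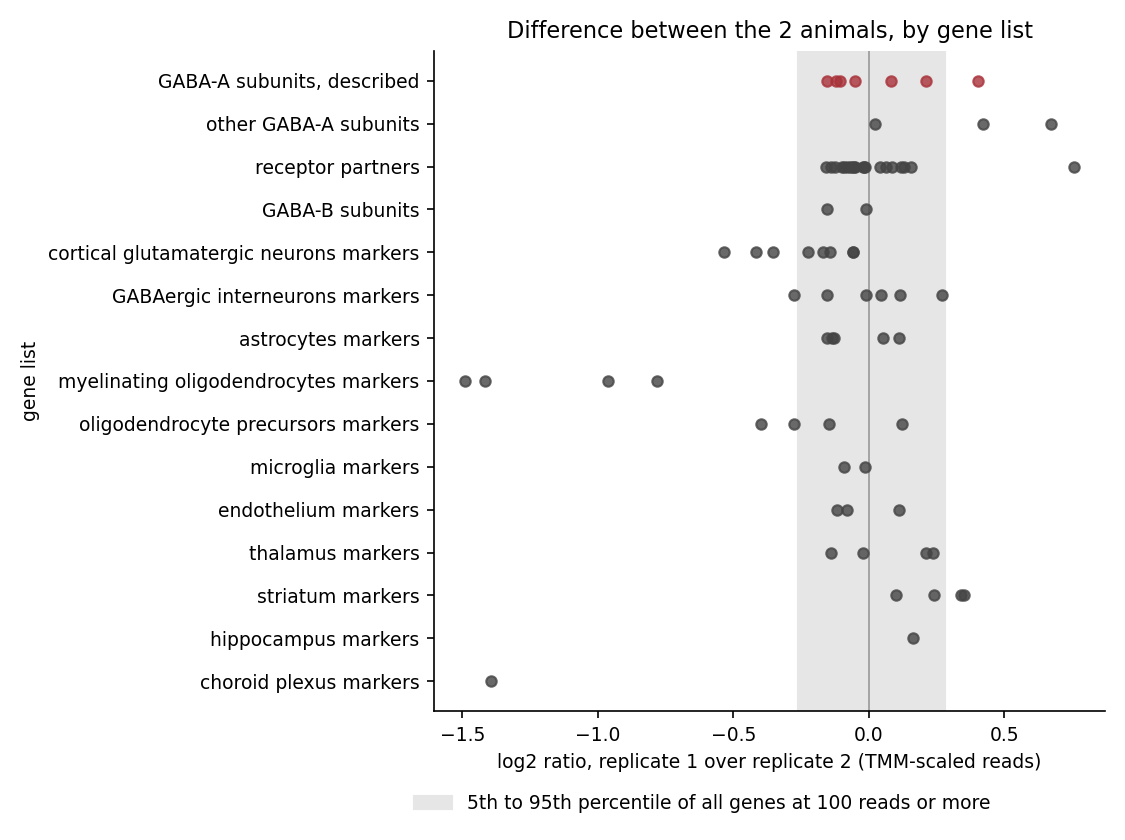
Log2 ratio of TMM-scaled reads, replicate 1 over replicate 2, for each gene with a mean of 100 reads or more, by gene list; the grey band spans the 5th to 95th percentile of all 12689 such genes. Among the described subunits (top row) only Gabra2 lies right of the band, while the markers of myelinating oligodendrocytes lie left of it.

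The gene model behind each level mattered most for Gabra2. Its coding transcript Gabra2-203 and the transcript Gabra2-204, annotated as a target of nonsense-mediated decay (the pathway that removes mRNAs with an early stop codon), had near equal shares. Gabra2-203 had 13.6 and 10.8 TPM, or 39.5% and 48.2% of the gene in replicates 1 and 2. Gabra2-204 had 14.9 and 9.01 TPM, or 43.4% and 40.2%. The leading transcript was therefore Gabra2-204 in replicate 1 and Gabra2-203 in replicate 2, but their credible intervals overlapped in both animals. In replicate 1 that of Gabra2-204 began at 12.3 TPM and that of Gabra2-203 ended at 14.3 TPM, and in replicate 2 that of Gabra2-204 ended at 9.81 TPM and that of Gabra2-203 began at 9.48 TPM. The alignment-free tables put Gabra2-204 first in both animals (47.5% and 43.2%, against 31.8% and 40.1% for Gabra2-203). By reads, Gabra2-203 led in both, with 1460 and 1272 expected reads against 1050 and 695. A second decay-annotated transcript, Gabra2-201, held 2.65% and 0% in the alignment-based tables and 7.14% and 11.6% in the alignment-free ones.

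The annotated difference in the coding part of the 2 leading Gabra2 transcripts is shown next, since the reading frame turns on it. Exon 5 of Gabra2-203 begins with 61 bases (chr5:71014576-71014636, minus strand, in capitals) that Gabra2-204 does not have. The lines give the spliced sequence with 30 bases on either side (within chr5:71014546-71034759), across the junction of exons 4 and 5. As 61 is not a multiple of 3, Gabra2-204 reads 2 codons past the junction and then meets TGA, so its annotated frame has 87 codons, against 451 codons in Gabra2-203.
Gabra2-203: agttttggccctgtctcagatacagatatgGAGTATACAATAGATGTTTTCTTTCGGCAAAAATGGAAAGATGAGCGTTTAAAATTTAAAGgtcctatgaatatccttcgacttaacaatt
Gabra2-204: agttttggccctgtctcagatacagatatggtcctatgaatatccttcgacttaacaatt
The benzodiazepine-site codon shown above lies in the same exon, downstream of this stretch. Gabra2-204 also ends 1884 bases earlier in the last exon and has no base that is found in no other transcript, so its estimated share does not rest on the exon 5 junction alone. The deposited tables give no reads per junction.

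**Figure D4:**
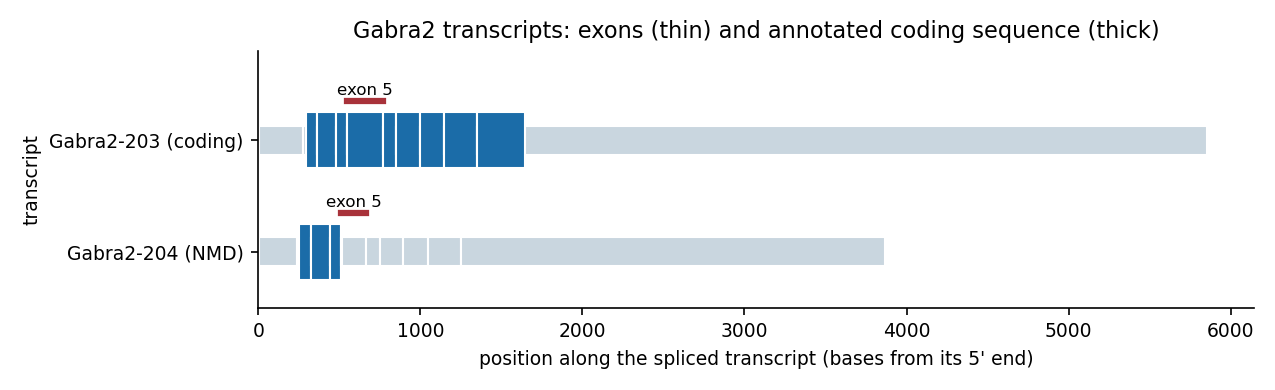
Exons of the Gabra2-203 and Gabra2-204 transcripts laid end to end, in bases from the 5′ end of the spliced transcript, with the annotated coding sequence drawn thick and exon 5 marked in red. The coding part of Gabra2-204 stops just inside exon 5, and its last exon is 1884 bases shorter.

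Across the members, the leading transcript was the same in both animals for 5 of the 7 genes, where 91.6% of 7886 protein-coding genes at 10 TPM or more with several transcripts had the same one; the exceptions were Gabra2 and Gabrb1. The same 5 members kept it in both quantifications as well, where 69.4% of those genes did. For Gabra5, which is among these 5, the lead was a near tie in replicate 1. Gabra5-202 had 25.4 TPM and Gabra5-201 24.97 TPM there, with overlapping credible intervals, and by reads Gabra5-201 led. In replicate 2 Gabra5-202 led by TPM and by reads, and the intervals did not overlap. Decay-annotated transcripts exist for 2 members, Gabra2 and Gabra4. They made up 25% or more of TPM in both animals for Gabra2 (46.0% and 40.2%), as for 11.7% of the 2595 genes at that level with such a transcript, a limit chosen after the values were seen. For Gabra4 they made up 8.30% and 13.4%.

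Gabrb1 was divided between a long and a short model. Gabrb1-201, of 13737 bases, had 21.9 and 17.4 TPM (51.4% and 49.4%). Gabrb1-202, of 799 bases, starts inside the overlap with Gabra4 and is annotated without its 3′ end, and had 20.8 and 17.9 TPM (48.6% and 50.6%). In reads the models were far from equal, with 5599 and 4865 expected reads for Gabrb1-201 and 272 and 256 for Gabrb1-202. Only 101 bases of Gabrb1-202 are not shared with Gabrb1-201. The Gabrb1 level thus depended on counting a short, incomplete model as a molecule of its own, since 4.82% ± 0.257 of its reads (mean of 2 animals) gave that near equal share of its TPM. Transcripts of Gabra4 were not part of the base comparison, so bases of Gabrb1-202 in the overlap may also lie in them. Whether reads of Gabra4 entered the Gabrb1-202 share was not tested.

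Gabra4 showed the same pattern to a lesser degree. Its full-length transcript Gabra4-201 had 28.2 and 26.6 TPM, nearly level between the animals, or 85.2% and 65.1% of the gene. The 440-base model Gabra4-203 had 0.43 TPM in replicate 1, from 2.74 expected reads, and 7.55 TPM in replicate 2, from 52.7 expected reads. Its credible intervals were 0 to 4.83 TPM and 3.17 to 11.2 TPM. Gabra4-202, annotated as a decay target, had 2.75 and 5.46 TPM. The higher gene TPM of replicate 2 thus came from the short models, and the deposited gene length was 3058 bases there and 3766 bases in replicate 1.

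The transcripts of Gabra5 did not differ in what they encode, while those of Gabra3 and Gabrd did. Gabra3-201 is annotated with 492 codons and Gabra3-202 with 533, and Gabrd-202 and Gabrd-203 are annotated without a coding sequence. Gabra5-201, Gabra5-202 and Gabra5-203 share the coding sequence of 463 codons and differ in their 5′ exons. Their 3′ ends differ too, so their shares do not rest on the 5′ exons alone. Gabra5-202 held 45.1% and 62.7%, Gabra5-201 44.3% and 31.5%, and Gabra5-203 10.5% and 5.76%. The alignment-free tables gave Gabra5-202 more, 76.4% and 78.2%. Gabra3-201 took 98.5% and 97.2% of Gabra3, but 73.6% and 64.8% in the alignment-free tables, which gave Gabra3-202 14.7% and 15.1% and the non-coding Gabra3-203 11.8% and 20.0%. Gabrd-201 held 90.7% and 90.0% (79.6% and 76.7% alignment-free), Gabrd-203 8.20% and 8.91% (11.5% and 12.8%) and Gabrd-202 1.10% and 1.08% (8.81% and 10.4%).

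**Figure D5:**
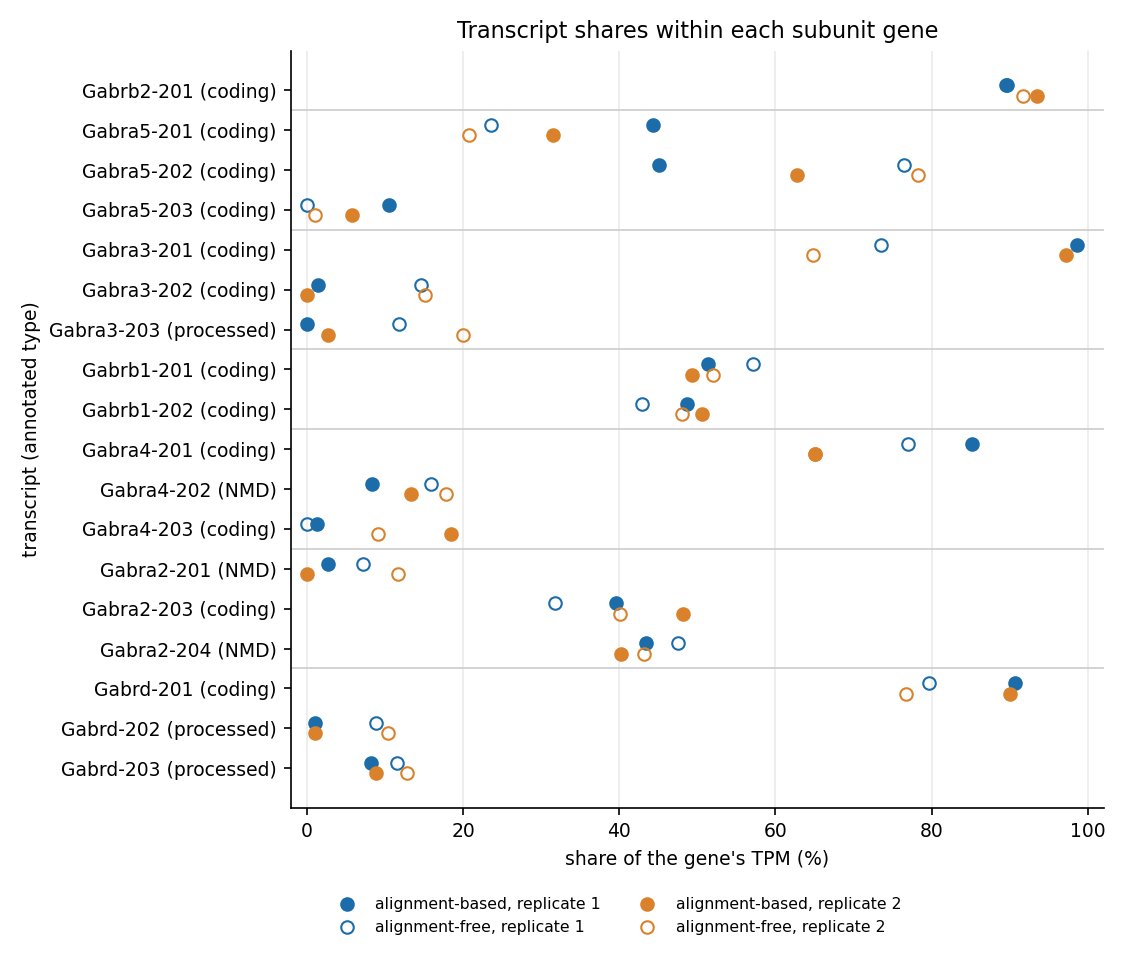
Share of each gene's TPM by transcript, for the transcripts with 10% or more in at least 1 animal by either quantification; filled points are alignment-based, open points alignment-free, and NMD marks transcripts annotated for nonsense-mediated decay. The coding and NMD transcripts of Gabra2 sit side by side near the middle, as do both Gabrb1 models, while Gabrb2, Gabra3 and Gabrd are each led by a transcript far to the right.

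Gabrb2 was carried by its short form. Gabrb2-201 held 89.5% and 93.5% of the gene, with 72.1 and 72.9 TPM. The coding sequence of the long form Gabrb2-205 holds an added exon of 114 bases, or 38 codons, in the large loop on the inside of the membrane (chr11:42602115-42602228, plus strand). The exon is shown in capitals with 15 spliced bases on either side (within chr11:42597771-42626558).
Gabrb2-205: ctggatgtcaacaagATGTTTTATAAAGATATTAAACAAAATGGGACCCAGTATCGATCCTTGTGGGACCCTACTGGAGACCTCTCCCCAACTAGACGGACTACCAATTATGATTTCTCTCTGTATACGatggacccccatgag
Gabrb2-205 had 1.01 and 1.65 TPM, or 1.25% and 2.12% of the gene, with credible intervals of 0.132 to 2.82 TPM and 0.207 to 3.81 TPM. It was named for this exon and not for its share, which lay under the 10% used for other transcripts. The 114 bases of the exon are the only ones it does not share with another Gabrb2 transcript. The models also differ outside the coding sequence. Gabrb2-205 is annotated with 1539 bases and Gabrb2-201 with 3989, of which 2222 are in no other Gabrb2 transcript. The shares therefore do not rest on the added exon alone.

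Restricting each member to protein-coding transcripts with a complete coding sequence, a choice made after the values were seen, left the top of the order in place and turned its end. Gabrb2 kept 73.1 and 74.6 TPM, Gabra5 56.3 and 53.7 TPM, Gabra3 42.6 and 36.7 TPM, and Gabra4 28.2 and 26.6 TPM. Gabrb1 was at 21.9 and 17.4 TPM and Gabrd at 15.6 and 15.9 TPM. Gabra2 was then lowest, with 13.6 and 10.8 TPM, and its estimate stood below that of Gabrd in both animals (log2 ratio -0.38). Their credible intervals overlapped in replicate 1, where that of Gabra2-203 ended at 14.3 TPM and that of Gabrd-201 began at 13.7 TPM. By the criterion used for pairs, Gabra2 and Gabrd were therefore not set apart here. Over complete coding transcripts the alignment-free tables gave the same order, with Gabra2 at 16.7 and 14.4 TPM and Gabrd at 20.3 and 21.4 TPM.

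The receptor's other genes were read from lists. Of 9 further subunit genes, 3 were at 1 TPM or more in both animals, against 59.1% of the 22028 protein-coding genes. Gabrg3 had 20.2 and 17.7 TPM and Gabrg1 11.3 and 8.52 TPM, and both encode gamma subunits. Gabrq, which encodes theta, had 2.27 and 1.36 TPM and a log2 ratio of 0.67 between the animals from 174 and 110 reads. The other 6 (Gabra6, Gabre, Gabrp and the 3 rho genes Gabrr1 to Gabrr3) had at most 8 alignment-based expected reads in either animal, and Gabrp had none. In the alignment-free tables Gabre had 38.3 and 21.9 reads. Gabra6 is a subunit of cerebellar granule cells and the rho genes are known from the retina.

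All 20 genes listed for the scaffolding, assembly and transport of the receptor were at 1 TPM or more in both animals, against 59.1% of the 22028 protein-coding genes. The medians of these 20 genes were 53.4 and 45.4 TPM. The highest were Nsf, an ATPase of membrane fusion that binds beta subunits, with 323 and 277 TPM, Gabarapl1, a relative of the receptor-associated protein Gabarap, with 222 and 221 TPM, and Nlgn2, the adhesion protein of inhibitory synapses, with 135 TPM in each. Gphn, the scaffold gephyrin that holds receptors at synapses, had 40.4 and 38.7 TPM, a level near that of Gabra3. Plcl1, which binds beta subunits in receptor transport, was lowest with 6.98 and 6.07 TPM. Hap1, which carries receptors back to the membrane, was the only gene of the list more than 1.5-fold apart between the animals, with 53.9 and 28.7 TPM and a log2 ratio of 0.76, in the same direction as Gabra2. The metabotropic GABA-B receptor genes exceeded every member, Gabbr1 with 298 and 270 TPM and Gabbr2 with 130 and 133 TPM.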

How the data were processed

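Total RNA-seq of 2 libraries (1 group) was used as deposited. Per the file headers and the accompanying notes, the authors quantified reads on mm10 with annotation M21 in gene and transcript tables from transcriptome alignments, which give estimated counts (called expected reads), TPM and the bounds of a credible interval, stored as a score in TPM units whose level is not stated; a few TPM estimates lie just outside their own interval. Separate alignment-free transcript tables, derived from the reads directly, give estimated counts and TPM; they were summed per gene. Tools and versions are not stated in these sources. The members and gene lists were chosen with earlier results of these data known; other subunit genes are not reported here. All members and transcripts with a share of 10% or more were named, and from the lists the 3 highest, the lowest and those over 1.5-fold apart at 100 reads or more, plus Gphn and Gabrb2-205, which were chosen after their values were seen.

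Pairs were compared as log2(TPM + 0.1) within a library. Library ratios used counts with 0.5 added, scaled by TMM (edgeR 4.0.16, R 4.3.3), with size factors from DESeq2 1.42.0 as an alternative; the scaling was tested on simulated data. No model was tested, as there is 1 group. Sequences were read from GENCODE M21 transcripts and aligned with Biopython 1.88; coding stretches stand in for protein sequence. Depth was 29990965 and 31156256 expected reads; reads without molecular identifiers are not independent molecules, so count floors cover counting error only. Alternatives were the other quantification, posterior means, other scalings and pseudocounts, no read minimum, other transcript sets and each animal alone.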

Additional observations from a re-analysis of the deposited data

How the results depend on the processing

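The median of the 7 members, 40.1 TPM, was 56.8 TPM in the alignment-free tables, 77.4 TPM when TPM was rescaled over protein-coding genes and 27.4 TPM over complete coding transcripts, a choice made after seeing the data; leaving out 1 animal gave 37.7 to 42.5 TPM. All 7 members stayed detected at 0.5 and at 5 TPM. The 17 pairs set apart became 17 to 21 across the alternatives. All alternatives but the pseudocounts and single animals were judged by sign alone, a laxer rule. On complete coding transcripts, for example, Gabra2 and Gabrd passed by sign although their credible intervals overlapped in replicate 1. Leaving out 1 animal gave 18 and 19. On counts without length correction, where length enters the ratio, Gabra5 over Gabra3 reversed to a log2 ratio of -0.032 and Gabra5 over Gabrb1 to -1.03, and Gabra2 over Gabrd reversed to -0.38 on complete coding transcripts. No member was 2-fold apart between the animals under any scaling; the genes that were numbered 41 to 45 under the count scalings, 76 on TPM as deposited and 6243 without the read minimum, where genes of few reads enter. Members with 1 leading transcript numbered 5, against 7 in the alignment-free tables, 6 by reads, 6 over coding transcripts and 5 by posterior means. Gabra2 and Gabrd have only 1 coding transcript each, so over coding transcripts their leader could not differ between the animals. No paired analysis was possible because the samples form 1 group. Depth limits the short transcripts most, such as Gabra4-203 with 2.74 and 52.7 expected reads.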
